A study of Mus musculus with 9 samples.

Results

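The circadian clock genes described here were 10 mouse genes chosen by name: Arntl (also called Bmal1), Clock, Npas2, Per1, Per2, Per3, Cry1, Cry2, Nr1d1 and Dbp. All 10 were found among the 48795 Ensembl genes of the deposited RNA-seq table once its identifiers were paired with GENCODE M21 symbols, and all 10 passed the filter on low values that left 12741 genes to be tested. They were measured in 9 libraries of mouse colon organoids, which are cultures of colonic epithelium grown from crypts in Matrigel. WT organoids came from wild-type littermates and AHR KO organoids from Villin-Cre Ahr fl/fl mice, in which Cre under the gut epithelial Villin promoter recombines the floxed gene for the aryl hydrocarbon receptor (AHR), all on C57BL/6. Organoids of both genotypes were kept in WENR, a Wnt3a-supplemented medium with EGF, Noggin and R-spondin1 that, per the study's methods, also held SB202190, the ALK5 inhibitor A83-01 and nicotinamide, and were exposed to the solvent DMSO or to 5 nM of the AHR ligand FICZ for 4 h. In WT there were 2 DMSO libraries (replicates 2 and 3) and 3 FICZ libraries (replicates 1, 2 and 3). In AHR KO each treatment had 2 libraries (replicates 1 and 3). Values below follow the order of the replicate numbers. The ages of the mice and the time of day at which organoids were harvested are not given in the sources used here, and each group was taken at a single time, so no rhythm was measured.

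The mammalian clock is a feedback loop of transcription. ARNTL pairs with CLOCK, or with the related NPAS2, and the pair binds E-boxes in DNA and switches on the Per and Cry genes, whose proteins return to the nucleus and block it. A further loop runs through NR1D1 (REV-ERB alpha), a nuclear receptor that represses Arntl and Clock, and DBP is a transcription factor whose gene is a direct output of the loop. ARNTL, CLOCK and NPAS2 belong to the bHLH-PAS family of transcription factors together with AHR and its partner ARNT, and the PER proteins carry PAS domains as well. Intestinal epithelium is known to run such a clock, which paces digestion, absorption and cell division over the day.

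Sequence upstream of the gene starts is shown for 6 of these genes, because the clock's own factors act on short motifs there. The RefSeq promoter table, on the build GRCm38.p6, held windows for 9 of the 10 genes (13 windows, since some have several starts); Per2 had no entry. The motifs searched on both strands of the 250 bases before each start were the E-box CACGTG, the variant E-box CACGTT, the D-box TTATGTAA or TTACGTAA bound by DBP and its relatives, the half-site AGGTCA bound by NR1D1 and the ROR receptors, and GCGTG, the core bound by AHR with ARNT. The E-box is its own reverse complement, and none of these contains another. Capitals mark every match on either strand to the E-box, its variant, the D-box and GCGTG, and bases that GENCODE annotates as exon were cut away. Apart from Clock, the genes shown are those with an E-box, its variant or the D-box, and for Per1 the window with the E-box is shown. Of the genes not shown that had windows, Arntl held no match, and Npas2 and Dbp held only GCGTG. The stretches run 5′ to 3′ on the strand of the gene: Clock at chr5:76304793-76304875 (minus strand), Per1 at chr11:69098699-69098947 (plus), Per3 at chr4:151044666-151044915 (minus), Cry1 at chr10:85185065-85185304 (minus), Cry2 at chr2:92434070-92434319 (minus) and Nr1d1 at chr11:98775378-98775627 (minus).
Clock: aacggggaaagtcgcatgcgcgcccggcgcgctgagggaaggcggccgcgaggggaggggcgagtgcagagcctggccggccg
Per1: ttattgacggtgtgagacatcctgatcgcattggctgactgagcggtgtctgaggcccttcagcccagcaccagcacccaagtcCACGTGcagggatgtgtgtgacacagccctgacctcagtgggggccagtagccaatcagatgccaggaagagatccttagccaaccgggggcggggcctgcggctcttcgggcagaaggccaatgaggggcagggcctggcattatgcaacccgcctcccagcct
Per3: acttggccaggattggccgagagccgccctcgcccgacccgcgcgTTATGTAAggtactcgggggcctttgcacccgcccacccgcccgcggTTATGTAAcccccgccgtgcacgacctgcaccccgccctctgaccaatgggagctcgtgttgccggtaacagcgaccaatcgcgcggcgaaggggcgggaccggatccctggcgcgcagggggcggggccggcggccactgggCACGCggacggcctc
Cry1: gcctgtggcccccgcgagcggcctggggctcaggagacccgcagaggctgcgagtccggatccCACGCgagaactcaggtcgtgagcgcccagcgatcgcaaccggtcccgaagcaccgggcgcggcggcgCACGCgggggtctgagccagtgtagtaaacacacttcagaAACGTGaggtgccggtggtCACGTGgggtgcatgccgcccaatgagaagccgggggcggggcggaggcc
Cry2: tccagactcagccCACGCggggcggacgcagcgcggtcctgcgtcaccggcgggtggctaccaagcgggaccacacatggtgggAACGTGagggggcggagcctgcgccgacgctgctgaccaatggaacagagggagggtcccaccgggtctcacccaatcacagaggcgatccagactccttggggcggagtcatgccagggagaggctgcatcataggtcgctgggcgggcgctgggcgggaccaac
Nr1d1: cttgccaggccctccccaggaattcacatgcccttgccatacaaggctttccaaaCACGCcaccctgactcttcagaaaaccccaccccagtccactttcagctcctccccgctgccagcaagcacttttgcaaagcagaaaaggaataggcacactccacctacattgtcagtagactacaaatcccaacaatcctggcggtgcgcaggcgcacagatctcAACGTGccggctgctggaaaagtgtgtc

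Matches are counted here over the 13 windows, as in the share over all windows. The E-box was present in 2 of the 13, of Per1 (its first base 166 bases before the start) and of Cry1 (60 bases before), against 6.02% of all 32851 windows in the table. The variant E-box was present in 3, of Cry1 (79 bases before), Cry2 (166 bases before) and Nr1d1 (28 bases before), against 3.85% of windows. The D-box was present in 1 window, of Per3, which held 2 copies, 205 and 158 bases before its start, against 0.931% of windows. The AHR core GCGTG is short and common, at 28.2% of windows, and was present in 9 of the 13 windows, of 8 of the 9 genes. In Clock it lay 152 bases before the outermost start, which is further upstream than the stretch shown, and it occurred in another of its windows as well. The half-site AGGTCA was present in 2 windows, of Clock and of Per1, against 14.0% of windows. The longer form TNGCGTG was present in 2, of Cry1 and of Nr1d1, against 4.10% of windows. These matches describe letters, not sites that a factor was seen to bind.

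The values are the authors' normalised read counts, a signal scaled for depth in which 1 read was worth about 0.797 to 1.09 depending on the library, for an estimated depth of 21.6 to 30.3 M reads. Differences are log2 values from limma on log2(value + 1), two-sided, with p-values adjusted by Benjamini-Hochberg over all genes tested, and a gene was called at an adjusted p under 0.05. Ahr itself read higher in the libraries labelled AHR KO (1346 to 1443) than in those labelled WT (783 to 858), by 0.74 under DMSO (adjusted p = 0.000194) and 0.84 under FICZ (adjusted p = 1.61e-05) on the log2 scale. A gene-level value covers the whole transcript and cannot show whether the floxed exon is gone, so the genotypes below are those of the labels. All 12 epithelial markers looked for were present, with Epcam at 21237 to 35708. Some varied more between libraries, such as Car1 (309 to 2530), Muc2 (73.1 to 435), Lgr5 (490 to 1579) and Cdx2 (2788 to 7393). The summed epithelial list read 311598 to 332502 in WT DMSO and 307020 to 309268 in AHR KO DMSO, without overlap. Under FICZ it read 309104 to 330771 in WT and 302383 to 321085 in AHR KO, which overlapped. Of 8 immune markers, those at 0 in every library included Ptprc and Lyz2, while Cd68 read 475 to 712 and Csf1r 5.86 to 17.4. The immune list summed to 507 to 585 in WT DMSO, 482 to 534 in WT FICZ, 506 to 603 in AHR KO DMSO and 562 to 726 in AHR KO FICZ, so that under FICZ both AHR KO libraries stood above all 3 WT libraries. Of 8 fibroblast markers, only Pdgfrb had a mean of 10 or more. The list summed to 59.4 to 87.7 in WT DMSO and 87.5 to 112 in WT FICZ, which overlapped. It summed to 21.8 to 34.7 in AHR KO DMSO and 35.9 to 41.3 in AHR KO FICZ, which did not. Of 8 endothelial and neural markers, only Elavl4 had a mean of 10 or more. That list summed to 66.1 to 100.5 in WT and 21.8 to 49.7 in AHR KO, and the treatments overlapped within each genotype. The sums of the last 2 lists thus lay lower in AHR KO without overlap, and rested largely on 1 gene each. Pdgfrb read 15.3 to 110, while every other fibroblast marker read at most 4.34 (Col1a1). Elavl4 read 11.3 to 85.8, while the others of its list read at most 10.9 (Tubb3), with S100b and Sox10 at 0 throughout. The part of these marker lists in the FICZ and genotype comparisons was not tested. In bulk RNA, fewer cells of a type and less RNA per cell cannot be told apart.

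Per length of exon, the clock genes spanned a wide range of levels. Over the 9 libraries Cry1 averaged 197 ± 19.8 normalised counts per kb (SD) and Clock 195 ± 23.1, followed by Npas2 at 156 ± 21.6. Per1 at 108 ± 12.2 and Nr1d1 at 104 ± 13.9 came next. Below them were Per2 at 57.1 ± 5.02, Arntl at 56.1 ± 7.92 and Cry2 at 46.1 ± 4.70, and the lowest were Dbp at 26.7 ± 2.62 and Per3 at 16.6 ± 1.77. By their range over the 9 libraries, the neighbours Cry1 and Clock, Clock and Npas2, Per1 and Nr1d1, Per2 and Arntl, and Arntl and Cry2 overlapped in this order. Per kb of the longest transcript instead of all exons, Clock came ahead of Cry1, at 275 against 218, and Arntl (106) and Cry2 (73.3) came ahead of Per2 (57.3). Of the partners that pair with ARNTL, both Clock and Npas2 were therefore listed at a higher level per length than Arntl.

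**Figure D1:**
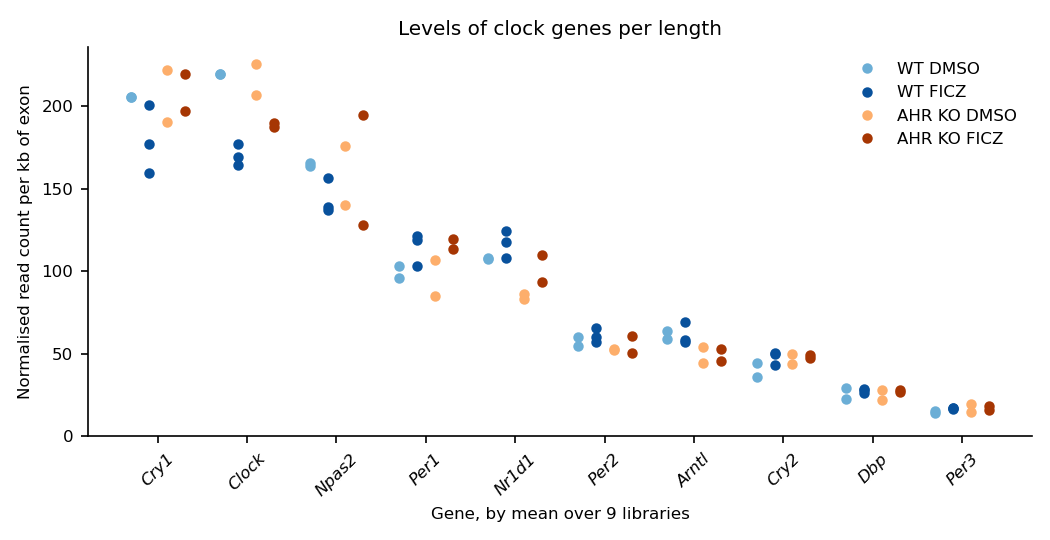
Normalised read count per kb of annotated exon (vertical axis, from 0) for the 10 clock genes, ordered by their mean over the 9 libraries; each point is 1 library, coloured by group. Cry1 and Clock sit at about 160 to 225 per kb and Per3 at 14.2 to 19.9.

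The genes varied little between libraries. The ratio of the highest to the lowest of the 9 values ran from 1.30 for Per2 to 1.56 for Arntl. The coefficient of variation over the 9 libraries had a median of 11.0% for the 10 clock genes against 13.7% for all genes tested, and 8 of the 10 lay under that overall median. The 2 sets were not matched for level: the clock genes averaged 80.0 (Dbp) to 2683 (Clock), while genes were tested down to a mean of 10. Low values vary more by counting alone. Dbp had the lowest values, for which counting alone gives a coefficient of variation of 10.4 to 12.0% per library, against 1.61 to 2.17% for Clock.

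**Figure D2:**
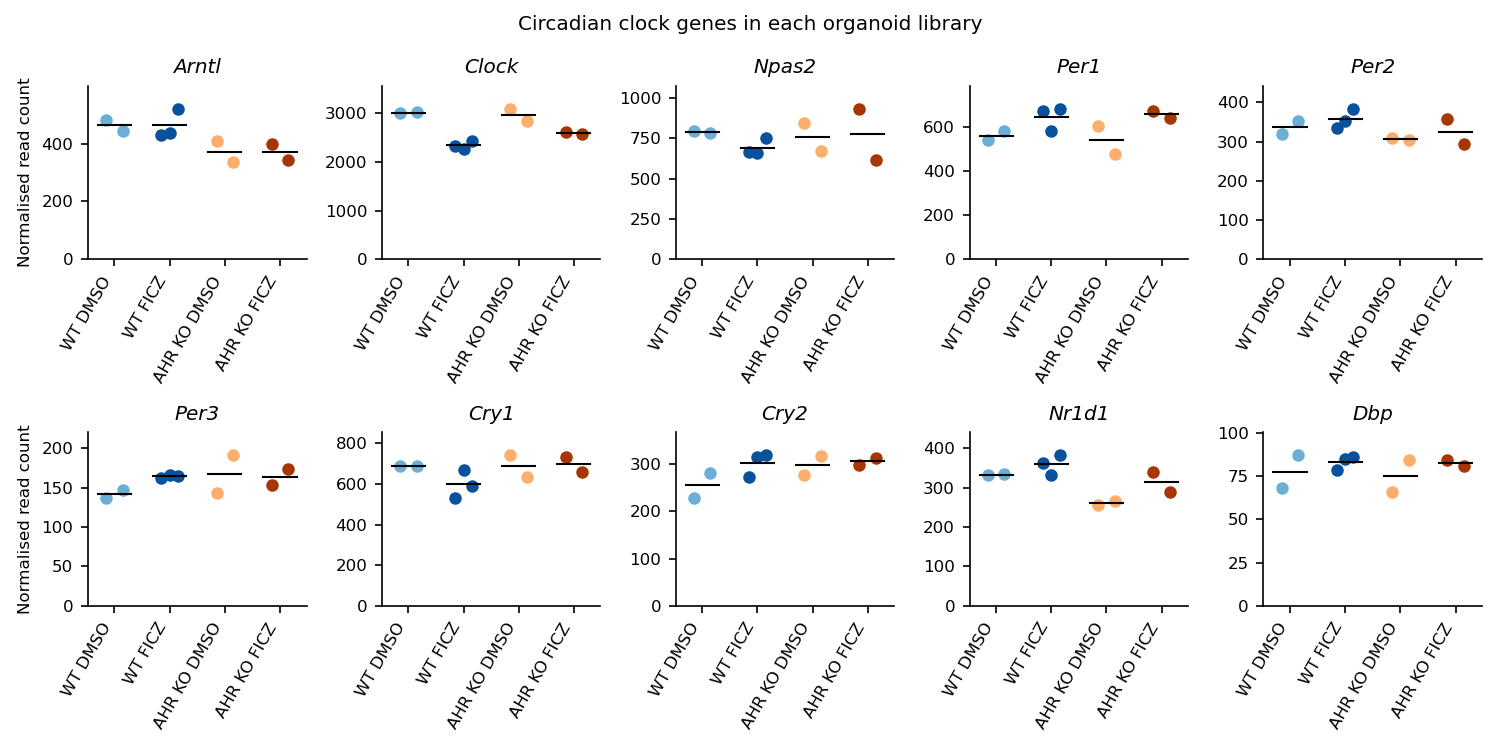
Normalised read count (vertical axis, from 0) of each clock gene in every library of the 4 groups; points are single libraries and the black bar is the group mean. In Clock all 3 WT FICZ libraries (2255 to 2431) sit below both WT DMSO libraries (3011 and 3015).

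FICZ was compared with DMSO within each genotype, and AHR KO with WT within each treatment, to ask whether the AHR ligand or the receptor alters these genes. Clock was the one clock gene called: it fell after FICZ in WT organoids, and in AHR KO organoids by a smaller estimate whose call most alternative settings lost. Counted over the 10 genes, FICZ in WT called 1 (Clock, lower), where 30.8% of all genes tested were called, 15.1% higher and 15.7% lower. FICZ in AHR KO also called 1 (Clock, lower), where 19.7% of all genes were called, 10.2% higher and 9.48% lower. No clock gene was called for AHR KO against WT under DMSO, where 9.05% of all genes were called (4.21% higher and 4.83% lower), nor under FICZ, where 20.0% were (9.48% higher and 10.5% lower), nor for the difference between the FICZ changes, where 0.447% were. At an unadjusted p under 0.05 the counts in limma were 1 of 10 for FICZ in WT, against 42.1% of all genes tested, and 3 of 10 for FICZ in AHR KO, against 34.3%. They were 2 of 10 for the genotype comparison under DMSO (23.8% of all genes), 2 of 10 under FICZ (33.6%) and 0 for the difference between FICZ changes (7.47%). The median absolute log2 difference of the 10 genes was 0.20 for FICZ in WT against 0.21 over all genes tested, and 0.06 for FICZ in AHR KO against 0.19. For the genotype comparisons it was 0.10 against 0.14 under DMSO and 0.14 against 0.16 under FICZ, and for the difference between FICZ changes 0.16 against 0.12. The 9 genes not called for FICZ in WT had estimates from -0.21 (Cry1) to 0.25 (Cry2), and their intervals together reached from -0.54 to 0.54. The comparisons share libraries, so their values are given side by side and not correlated. With a trend in GC content and length removed from each library, 11 uncalled FICZ estimates changed sign, those of Per1, Per2 and Dbp in both genotypes, Arntl and Nr1d1 in WT and Npas2, Cry1 and Cry2 in AHR KO, and the farthest from 0 was Dbp in WT at -0.32. All genes called for FICZ then numbered 2315 in place of 3928 in WT and 697 in place of 2509 in AHR KO.

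**Figure D3:**
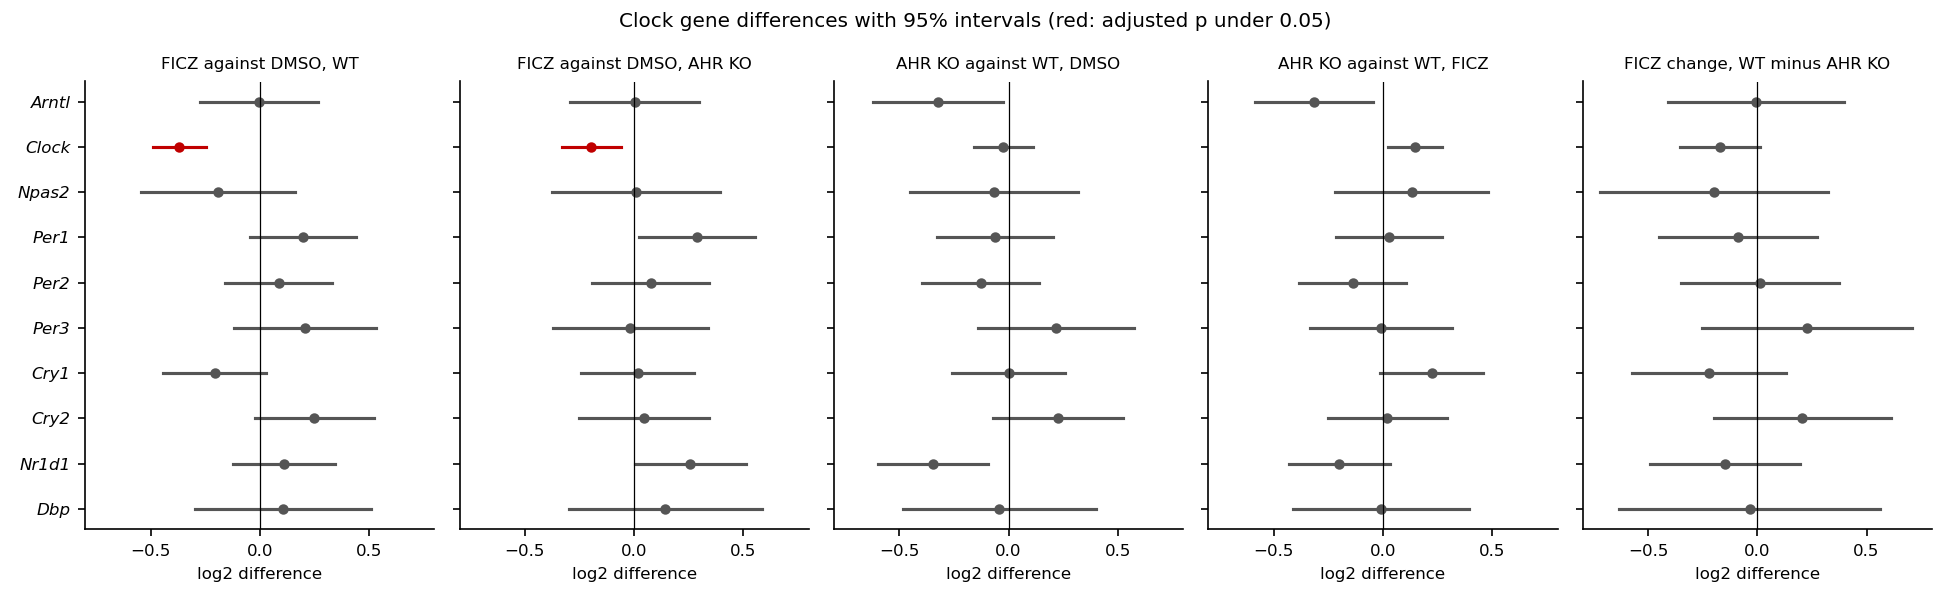
Log2 difference (horizontal axis) of the 10 clock genes in the 5 comparisons, with points for the limma estimate and lines for its 95% interval; red marks an adjusted p under 0.05. Clock after FICZ is red in WT (-0.37) and in AHR KO (-0.20), and the intervals of the genotype difference for Arntl and Nr1d1 under DMSO lie below 0 without being called.

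Within the positive arm of the loop, Clock was the one gene called, and it was not tested against Npas2 or Arntl. Clock encodes the bHLH-PAS partner of ARNTL and lies at chr5:76209868-76304792 on the minus strand. It read 3011 and 3015 in the WT DMSO libraries and 2324, 2255 and 2431 in the WT FICZ libraries. In AHR KO it read 3094 and 2841 under DMSO and 2606 and 2571 under FICZ. Every FICZ library of a genotype was below every DMSO library of that genotype, and the 2 AHR KO FICZ libraries stood between the WT FICZ and the WT DMSO libraries.

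FICZ lowered Clock in WT organoids to 0.775 of the DMSO level, a log2 difference of -0.37 ± 0.06 (SE; 95% interval -0.49 to -0.24; adjusted p = 0.00117). In AHR KO organoids the difference was -0.20 ± 0.06 (95% interval -0.33 to -0.06; adjusted p = 0.0463). The WT call was kept in all 22 alternative settings, at -0.40 to -0.25, while the AHR KO call was kept in 8 of 22. Clock is long and poor in GC: its longest transcript holds 40.9% GC against a median of 49.4% over the genes tested, and 9.54% of those genes had less. When a trend with GC content and length was removed from each library, the WT difference was -0.27 (adjusted p = 0.00596) and the AHR KO difference -0.05 (adjusted p = 0.651). The AHR KO call was also lost without each of the 4 AHR KO libraries in turn and without WT DMSO replicate 2 or 3 or WT FICZ replicate 1 or 3, with adjusted p-values up to 0.302, and with a replicate block (-0.20, adjusted p = 0.0646). The difference between the FICZ changes of the genotypes was -0.17 ± 0.08 (95% interval -0.35 to 0.01; adjusted p = 0.709), so a larger fall in WT was not shown. Between genotypes Clock differed by -0.02 under DMSO (adjusted p = 0.858) and by 0.15 under FICZ (adjusted p = 0.0880).

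Arntl, which encodes the shared partner of CLOCK and NPAS2 (chr7:113207465-113314126, plus strand), was not called after FICZ in either genotype. It read 480.4 and 445 in WT DMSO and 429.8, 438 and 521 in WT FICZ, and the FICZ difference in WT was within 0.01 of 0, with a 95% interval of -0.28 to 0.27. The AHR KO libraries read 408 and 335 under DMSO and 398 and 345 under FICZ, with an interval of the difference of -0.30 to 0.30. All 4 AHR KO libraries were below all 5 WT libraries. The genotype difference was -0.32 ± 0.13 under DMSO (adjusted p = 0.175) and -0.32 ± 0.12 under FICZ (adjusted p = 0.0971), and neither was called in the main analysis or in any of 20 alternatives each.

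Npas2, a paralogue of Clock that can stand in for it (chr1:39193731-39363236, plus strand), read 792 and 784 in WT DMSO and 667, 656 and 750.3 in WT FICZ. In AHR KO, the values were 843 and 672 under DMSO and 933 and 613 under FICZ, and replicate 1 was the higher in both. The WT libraries did not overlap between treatments, yet the difference of -0.19 ± 0.16 was not called (adjusted p = 0.393), and its interval of -0.54 to 0.16 would hold a fall as deep as that of Clock. In AHR KO the difference was 0.01 (95% interval -0.38 to 0.39).

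In the negative arm no gene passed the test in any comparison. Per1, the member of the Period family that is also known as an acute responder to hormones and other stimuli (chr11:69095217-69109960, plus strand), read 542 and 581 in WT DMSO and 671, 582 and 683 in WT FICZ. The AHR KO values were 603 and 479 under DMSO and 674 and 639.5 under FICZ. All FICZ libraries of a genotype were above its DMSO libraries, by 0.20 ± 0.11 in WT (adjusted p = 0.197) and 0.29 ± 0.12 in AHR KO (adjusted p = 0.119) on the log2 scale. With the GC and length trend removed, the WT value turned to -0.13 and the AHR KO value to -0.06.

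Per2, a core repressor whose loss is known to disrupt rhythms (chr1:91415982-91459324, minus strand), read 320.3 and 352 in WT DMSO and 335, 353 and 384 in WT FICZ. AHR KO libraries gave 309 and 305 under DMSO and 357 and 294 under FICZ. The groups overlapped within each genotype, with FICZ differences of 0.09 (95% interval -0.16 to 0.33) in WT and 0.08 (95% interval -0.19 to 0.34) in AHR KO. Per3, the Period gene with the D-boxes shown above (chr4:151003652-151044665, minus strand), read 136 and 147 in WT DMSO and 162, 166 and 164 in WT FICZ. In AHR KO it read 143 and 191 under DMSO and 153 and 174 under FICZ. The WT groups did not overlap, with a difference of 0.21 ± 0.15 (adjusted p = 0.307; 0.12 with the GC and length trend removed), whereas the AHR KO DMSO libraries lay on both sides of the FICZ ones.

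Cry1, whose protein is the strongest repressor of the CLOCK and ARNTL pair (chr10:85131700-85185064, minus strand), read 686 and 687 in WT DMSO and 533, 669.6 and 591 in WT FICZ. The AHR KO libraries read 742 and 636 under DMSO and 733 and 659 under FICZ. The WT FICZ libraries were all below the WT DMSO ones, a difference of -0.21 ± 0.11 (95% interval -0.44 to 0.03; adjusted p = 0.171), and the AHR KO difference was 0.02 (95% interval -0.24 to 0.28). Cry2, its paralogue (chr2:92403646-92434043, minus strand), read 228 and 281 in WT DMSO and 273, 315 and 319 in WT FICZ. In AHR KO, the values were 277 and 317 under DMSO and 299 and 313 under FICZ. The Cry2 groups overlapped, with FICZ differences of 0.25 ± 0.12 in WT (adjusted p = 0.148) and 0.05 ± 0.13 in AHR KO (adjusted p = 0.846). With the GC and length trend removed, the Cry2 values were 0.08 in WT (adjusted p = 0.711) and -0.15 in AHR KO (adjusted p = 0.593). Neither the Cry1 nor the Cry2 estimate in WT was called.

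Nr1d1, the repressor of the further loop (chr11:98767932-98775333, minus strand), stood lowest in the AHR KO organoids under DMSO. It read 256 and 266 there against 331 and 333 in WT DMSO, a log2 difference of -0.35 ± 0.11 (adjusted p = 0.0919). Under FICZ it read 339 and 288 in AHR KO and 363, 332 and 382 in WT, which overlapped, with a difference of -0.20 ± 0.10 (adjusted p = 0.212). The AHR KO values were higher with FICZ than without in each library, by 0.26 ± 0.11 (adjusted p = 0.141), and in WT the FICZ difference was 0.11 ± 0.10 (adjusted p = 0.456). With the GC and length trend removed, the FICZ difference was 0.02 in AHR KO (adjusted p = 0.945) and -0.11 in WT (adjusted p = 0.514). None of these was called, in the main analysis or in the alternatives.

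Dbp, the output gene (chr7:45705088-45710203, plus strand), read 67.9 and 87.1 in WT DMSO and 78.5, 84.6 and 86.1 in WT FICZ. The AHR KO values were 65.9 and 84.5 under DMSO and 84.1 and 81.0 under FICZ. All groups overlapped, and the intervals were the widest of the 10 for the FICZ and genotype contrasts, at -0.30 to 0.51 for FICZ in WT and -0.30 to 0.59 in AHR KO. A rise as large as the fall of Clock in WT lies inside both intervals.

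A further 24 genes that act on or beside the clock (loop receptors, PAR-bZIP factors, kinases, ubiquitin ligases and outputs) were examined, of which 20 were high enough to test; Rora, Rorb, Bhlhe41 and Hlf were not. FICZ in WT called 9 of the 20, with 3 higher and 6 lower, where 30.8% of all genes were called. FICZ in AHR KO called 1 of the 20, where 19.7% of all genes were called. AHR KO against WT called 1 under DMSO, where 9.05% of all genes were called, and 4 under FICZ, where 20.0% were. The difference between FICZ changes called 0 (2 at an unadjusted p under 0.05), where 0.447% of all genes were called. The median absolute difference for FICZ in WT was 0.32 for this list against 0.21 over all genes tested, and for FICZ in AHR KO it was 0.15 against 0.19. For AHR KO against WT it was 0.12 against 0.14 under DMSO and 0.14 against 0.16 under FICZ, and for the difference between FICZ changes 0.14 against 0.12.

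Of the genes that rose with FICZ in WT, Cipc, which encodes an inhibitor that binds CLOCK, had the narrowest interval. It read 1519.8 and 1478 in WT DMSO and 2275, 2074 and 2091 in WT FICZ, and 1243 and 1246 in AHR KO DMSO and 1243 and 1403 in AHR KO FICZ. The WT FICZ libraries stood above all the other 6. The WT difference was 0.52 ± 0.07 (adjusted p = 0.000615), the AHR KO difference 0.09 ± 0.07 (adjusted p = 0.454) and the difference between them 0.43 ± 0.10 (adjusted p = 0.157), which did not pass. Under FICZ, AHR KO was lower than WT, a difference of -0.70 ± 0.07 (adjusted p = 6.95e-05). This call and that for FICZ in WT were kept in every alternative tried (20 and 22). Under DMSO the AHR KO libraries were also below the WT ones, a difference of -0.27 ± 0.07 that was not called (adjusted p = 0.0504).

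Btrc, an F-box protein that marks phosphorylated PER for degradation, read 234 and 233 in WT DMSO and 326, 332 and 343 in WT FICZ, and between 225 and 262 in the 4 AHR KO libraries. The WT FICZ libraries again stood above all others. Its FICZ difference was 0.51 ± 0.10 in WT (adjusted p = 0.00426) and 0.04 ± 0.11 in AHR KO (adjusted p = 0.853), with 0.48 ± 0.15 between them (adjusted p = 0.382), and AHR KO was lower than WT under FICZ, a difference of -0.42 ± 0.10 (adjusted p = 0.0148) that lost its call without WT FICZ replicate 3 or either AHR KO FICZ library. Usp2, a deubiquitinase that acts on clock proteins, was low, at 14.2 and 17.3 in WT DMSO and 49.2, 38.1 and 44.7 in WT FICZ. It rose by 1.42 ± 0.48 in WT (adjusted p = 0.0471), a call kept in 11 of 21 alternatives and lost without any 1 of the 5 WT libraries. In AHR KO Usp2 read 19.2 and 5.57 under DMSO and 23.0 and 10.7 under FICZ.

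The 6 genes that fell with FICZ in WT were Arntl2, Nr1d2, Csnk1d, Tipin, Nampt and Wee1. Arntl2, a paralogue of Arntl, read 124 and 103 in WT DMSO and 52.1, 67.6 and 62.3 in WT FICZ, a difference of -0.89 ± 0.21 (adjusted p = 0.0106). AHR KO libraries gave 189 and 122 under DMSO and 95.3 and 104 under FICZ, a difference of -0.60 ± 0.23 that was not called (adjusted p = 0.0938), and under FICZ it was higher in AHR KO by 0.71 (adjusted p = 0.0381), a call lost without WT FICZ replicate 1 or 3 or either AHR KO FICZ library. Without WT DMSO replicate 2 the fall in WT was -0.76 and was not called (adjusted p = 0.0912). With a replicate block and the GC and length trend removed it was -0.64, also not called (adjusted p = 0.111).

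Nr1d2, the close relative of Nr1d1, read 781 and 804 in WT DMSO and 697, 629.7 and 572 in WT FICZ, and 739.5 and 793 in AHR KO DMSO and 628 and 586 in AHR KO FICZ. It fell in both genotypes, with differences of -0.33 in WT (adjusted p = 0.0200) and -0.34 in AHR KO (adjusted p = 0.0383), and with the GC and length trend removed neither was called (-0.15, adjusted p = 0.271, and -0.16, adjusted p = 0.403). Nampt, the enzyme that makes NAD in a loop driven by the clock, differed by -0.34 in WT (adjusted p = 0.00427). Tipin, the partner of Timeless at replication forks, differed by -0.34 (adjusted p = 0.0140), and Wee1, a kinase that holds back entry into mitosis and a known clock output, by -0.27 (adjusted p = 0.0135). Csnk1d, a kinase that phosphorylates PER, differed by -0.17 (adjusted p = 0.0245). None of these 4 genes was called for FICZ in AHR KO. There Nampt differed by -0.20 (adjusted p = 0.0803) and Tipin by -0.21 (adjusted p = 0.153). Wee1 differed by -0.07 (adjusted p = 0.558) and Csnk1d by -0.09 (adjusted p = 0.230). With the GC and length trend removed, Nampt in WT stood at -0.15 (adjusted p = 0.130) and Tipin in WT at -0.15 (adjusted p = 0.268). Csnk1d lost its WT call without WT DMSO replicate 2 (-0.13, adjusted p = 0.191) or 3 or WT FICZ replicate 3. It also lost it with a replicate block (-0.17, adjusted p = 0.0638). Tipin and Wee1 lost theirs without WT DMSO replicate 3 (-0.21 each, adjusted p = 0.143 and 0.115). Wee1 also did with a replicate block and the GC and length trend removed (-0.28, adjusted p = 0.0591). Nr1d2 lost its WT call without WT DMSO replicate 2 or 3 or WT FICZ replicate 3. In AHR KO the Nr1d2 call was lost without either WT DMSO library or any of the 4 AHR KO libraries.

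Bhlhe40 (also called Dec1), a repressor that competes for E-boxes, differed by genotype. It read 11257 and 10018 in WT DMSO against 8407 and 8357 in AHR KO DMSO, a difference of -0.34 ± 0.08 (adjusted p = 0.0246). Under FICZ it read 10884, 11353 and 11209 in WT against 10046 and 8558 in AHR KO, a difference of -0.27 ± 0.07 (adjusted p = 0.0272). The calls were lost without WT DMSO replicate 2 or either AHR KO DMSO library under DMSO, and without AHR KO FICZ replicate 3 (-0.15, adjusted p = 0.232) or WT FICZ replicate 3 under FICZ.

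**Figure D4:**
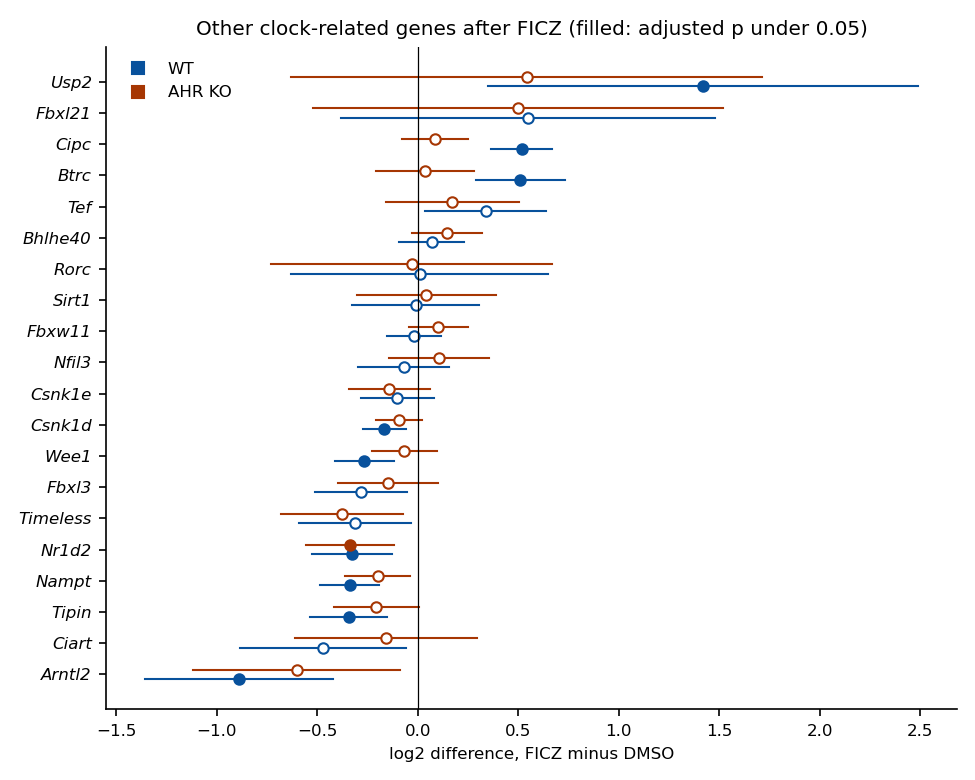
Log2 difference of FICZ minus DMSO (horizontal axis) for the 20 other clock-related genes tested, in WT (blue) and AHR KO (orange), with lines for the 95% interval and filled points for an adjusted p under 0.05. Cipc and Btrc are filled in WT (0.52 and 0.51) and lie near 0 in AHR KO (0.09 and 0.04).

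Outside the clock, 17 genes of PAS proteins were looked for, 16 were found and 11 were tested. FICZ called 3 of the 11 in WT, where 30.8% of all genes were called, and 3 of the 11 in AHR KO, where 19.7% were. Ahrr, Hif1a and Ncoa2 were the genes called for FICZ. AHR KO against WT called 2 of the 11 under DMSO (Ahr and Ahrr), where 9.05% of all genes were called. Under FICZ it called 3 (Ahr, Ahrr and Ncoa2), where 20.0% were. The genotype difference of Ahrr was -1.32 under DMSO (adjusted p = 0.0336), a call kept in 8 of 20 alternatives, which gave -4.00 to -0.20. All DMSO values of Ahrr lay under 3 counts per library, and it passed the filter on low values only through the WT FICZ libraries. Its DMSO call thus depends on the pseudocount and does not measure a genotype difference. Under FICZ it was -4.71 (adjusted p = 6.40e-06). Ahrr, the AHR repressor and a textbook AHR target, read 1.49 and 1.51 in WT DMSO, 568, 427 and 435 in WT FICZ, 0 in both AHR KO DMSO libraries and 16.9 and 17.3 in AHR KO FICZ. Against a floor of 3 counts per library, its rise with FICZ was at least 159-fold in WT and at least 5.70-fold in AHR KO. Hif1a, the oxygen-regulated member, fell with FICZ in WT (-0.36, adjusted p = 0.000574) and in AHR KO (-0.31, adjusted p = 0.00370). Ncoa2, a coactivator, fell in WT (-0.30, adjusted p = 0.0306) and in AHR KO (-0.52, adjusted p = 0.00730), and was lower in AHR KO than in WT under FICZ (-0.33, adjusted p = 0.0265). Hif1a and Ncoa2 were called lower with FICZ in both genotypes, as was Clock from the clock list. Over all genes tested, 15.7% were called lower in WT and 9.48% in AHR KO, and the share called lower in both was not counted. With the GC and length trend removed, Clock and Hif1a kept the call in WT and lost it in AHR KO (Hif1a -0.13, adjusted p = 0.177). Ncoa2 kept it in both. With a replicate block as well, the Hif1a difference in WT was -0.18 and was not called (adjusted p = 0.0883). Hif1a also lost its AHR KO call without AHR KO DMSO replicate 1 (-0.29, adjusted p = 0.0507). Ncoa2 lost its WT call without WT DMSO replicate 2 or 3 or WT FICZ replicate 3, its AHR KO call without AHR KO DMSO replicate 1 (-0.41, adjusted p = 0.0807), and its genotype call without WT FICZ replicate 1 or either AHR KO FICZ library.

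Exons of 4 clock genes overlap exons of a gene on the other strand, and whether the counting kept the strands apart is not stated. Dbp shares 539 bases, 18.0% of its exons, with Sphk2, a sphingosine kinase gene. Sphk2 read 721 and 743 in WT DMSO and 1336, 1132 and 1277 in WT FICZ, and rose with FICZ by 0.77 in WT (adjusted p = 0.000319) and 0.52 in AHR KO (adjusted p = 0.00576), so reads from it may be part of the Dbp value. Nr1d1 shares 263 bases, 8.55% of its exons, with Thra, the thyroid hormone receptor gene, which read 288 to 375 and was not called in any comparison. Cry2 and Arntl overlap D930015M05Rik (295 bases) and Gm45355 (33 bases), both of which were listed at 0 in every library.

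The genes whose profile over the 9 libraries lay nearest to that of Arntl were Cyp2j6, Gpi1 and Gmds, with root mean square differences of 0.062, 0.072 and 0.079 on the centred log2 scale, in a search of the 10974 genes averaging at least 50, whose median was 0.254. Gpi1, a glycolytic enzyme, averaged 23460 in WT DMSO, 22077 in WT FICZ, 17825 in AHR KO DMSO and 18364 in AHR KO FICZ. For Dbp the nearest were Vps51, BC003965 and Gstk1, at 0.056, 0.077 and 0.078 against a median of 0.219. These are nearest neighbours in a search over all genes and were not tested.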

How the data were processed

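RNA-seq was made from 9 organoid libraries. The deposited table holds the authors' normalised read counts, a signal scaled for depth, for 48795 Ensembl genes. The submitters' processing notes name STAR 2.5.2a, RSEM 1.2.31, DESeq2 1.16.1 and GRCm38, while the study's methods name summarizeOverlaps on mm10 and stranded, ribosome-depleted libraries; which of these made the table, its scaling and its use of strand are not stated. The deposited signal summed to 23177058 to 25033827 per library. Only 66.4 to 71.8% of low values lay within 0.1 of a whole multiple of the value of 1 read, so no count model was used.

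From there, values were taken as log2(value + 1), genes with a mean of 10 or more were kept (12741), and limma 3.58.1 (R 4.3.3; lmFit, eBayes with trend) was fitted to all 9 libraries with the 4 groups as coefficients and 5 contrasts, two-sided, with Benjamini-Hochberg adjustment over all genes tested; the threshold was 0.05. Group and replicate number came from the sample descriptions. The sample titles number the libraries differently, and those numbers were not used. The methods call the organoids biological replicates; where libraries share a source beyond that, p-values measure only the spread between these libraries. The fit was also run on simulated counts with the same spread beyond counting for every gene and no GC or length trend. That setting differs from these data, so the run does not show how the fit behaves on them. Symbols and coordinates came from GENCODE M21 on GRCm38 (48435 identifiers matched, 99.3%). The clock genes and all marker and gene lists were chosen with earlier results of these data known. Named were the 10 clock genes, every gene of the other clock-related and PAS lists called in at least 1 contrast, the 3 genes nearest in profile to Arntl and to Dbp, and genes whose exons overlap a clock gene. Alternatives were other pseudocounts, filters and scalings, fits of only the groups compared, robust variance, a replicate block, removal of a GC and length trend (lengths and GC found for 99.7% of genes), and leaving out each library. The replicate block was fitted as fixed and, separately, as a random effect, and it is the fixed one unless named otherwise. Intervals cover the spread between libraries, and the floor of 3 counts covers counting error only.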

Additional observations from a re-analysis of the deposited data

Results flagged for a closer look

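Ahrr, the gene of the AHR repressor, was the one gene of the clock, clock-related and PAS lists whose FICZ change differed between the genotypes by a test of the difference itself. The change in WT exceeded that in AHR KO by 3.39 on the log2(value + 1) scale (limma, adjusted p = 0.0100), and all 3 WT FICZ libraries (427 to 568) stood above both AHR KO FICZ libraries (16.9 and 17.3). Both AHR KO DMSO libraries were at 0, so the fitted value depends on the pseudocount: at 0.1 it was 0.78 (adjusted p = 0.871). It also lost its call without WT FICZ replicate 1 (3.25, adjusted p = 0.0683) or replicate 3 (3.44, adjusted p = 0.0615), with a replicate block (3.25, adjusted p = 0.0574), and with the block and a GC and length trend removed (3.24, adjusted p = 0.0711). Under FICZ the AHR KO organoids remained lower than WT in all 20 alternatives, at -4.79 to -4.15. None of the 10 clock genes met this criterion, and no group was large enough to test for a library far from the others.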

How the results depend on the processing

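Over the 10 clock genes, 1030 of 1045 values under the alternatives stayed on the same side of the threshold, 14 lost a call (all of them Clock after FICZ in AHR KO) and 1 gained one. Only Clock after FICZ was called in the main analysis, so most of these values had no call to lose. Some alternatives also left out a library outside the comparison. The Clock call was kept in all 22 alternatives in WT and in 8 of 22 in AHR KO. No called value changed sign. Of the uncalled values, 93 changed sign, with sizes up to 0.32. The count of clock genes called for FICZ in AHR KO was 0 in place of 1 with no filter on low values, with quantile normalization, with only the groups compared, with a replicate block, with the GC and length trend removed, and with both of the last together, and ranged from 0 to 1 when each library was left out. For AHR KO against WT under FICZ the count was 1 in place of 0 with quantile normalization (Clock at 0.21, adjusted p = 0.0182). The cause was not tested. The counts for FICZ in WT (1), AHR KO against WT under DMSO (0) and the difference between FICZ changes (0) did not move. Of 572 values of other named genes called in the main analysis, 485 stayed called.

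Libraries of the 2 treatments share numbers in the labels, which do not say whether a number marks 1 organoid line or animal. Deviations of same-numbered libraries from their group means correlated at 0.042, 0.050 and 0.035 (the AHR KO value covers both of its pairs). With the replicate block, which leaves 2 residual degrees of freedom in place of 5 and takes nothing for the WT difference from the unpaired WT FICZ replicate 1, Clock stood at -0.36 in WT (adjusted p = 0.00573) and -0.20 in AHR KO (adjusted p = 0.0646), and all genes called numbered 3138 in place of 3928 in WT and 2417 in place of 2509 in AHR KO. With the GC and length trend removed they numbered 2315 and 697 without the block, and 1709 and 529 with it. With the replicate number as a random effect in place of the fixed block, 4104 genes were called in WT and 2748 in AHR KO. Clock in AHR KO then kept its call (-0.20, adjusted p = 0.0390). Leaving out 1 library gave 1990 to 4133 called genes for FICZ in WT and 420 to 2961 in AHR KO, lowest without WT DMSO replicate 2 and AHR KO DMSO replicate 1. AHR KO against WT gave 389 to 1465 in place of 1153 under DMSO and 1312 to 3084 in place of 2544 under FICZ, lowest without AHR KO DMSO replicate 3 and AHR KO FICZ replicate 3. The difference between FICZ changes gave 23 to 78 in place of 57, lowest without either AHR KO DMSO library. Scaling moved the median of all genes by under 0.1. Depth limits Dbp and Per3 most, and groups of 2 limit all of them.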
